A study of Homo sapiens with 6 samples.

Results

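The enzymes that make serine and pass its one-carbon unit to folate are encoded by a small set of genes, and 9 of them were taken here by symbol: PHGDH, PSAT1, PSPH, SHMT1, SHMT2, MTHFD1, MTHFD1L, MTHFD2 and ALDH1L2. All 9 had a row on a reference chromosome, out of 63152 genes counted, and all 9 passed the filter on low counts that left 17171 genes for testing. They were measured in A549 cells, an established line from a human lung adenocarcinoma, by RNA-seq of total RNA. One group, siRPS19, was reverse transfected with a pool of siRNAs (siGENOME SMARTpool) against RPS19, a gene for a small-subunit ribosomal protein, and the other, siOTP, with a non-targeting ON-TARGETplus siRNA. Both received 10 nM siRNA with DharmaFECT1, a medium change after 1 day and harvest at 72 hours, with 3 biological replicates a group. The medium was DMEM:F12 with foetal bovine serum, a medium that supplies serine and glycine. The siRNA product line differed between the groups along with the target, and 1 pool in 1 cell line was used.

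Serine is built from the glycolytic intermediate phosphoglycerate in successive steps by PHGDH, PSAT1 and PSPH. Serine hydroxymethyltransferases (SHMT1 in the cytosol, SHMT2 in mitochondria) split serine into glycine and a one-carbon unit carried on tetrahydrofolate. In mitochondria MTHFD2 oxidises that unit, MTHFD1L releases it as formate and ALDH1L2 oxidises it fully, while in the cytosol MTHFD1 takes formate back onto folate for purine, thymidylate and methionine synthesis. The transcription factor ATF4 is known to drive several genes of this route. A549 cells carry a KEAP1 mutation that keeps the factor NRF2 active, a state known to raise the route in lung cancer cells.

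Counts on genes totalled 20814110 to 23889372 a library. RPS19 itself stood at 44.6, 36.0 and 44.4 counts per 1000000 (CPM) in siRPS19 and at 1474, 1374 and 1567 CPM in siOTP. All 5 epithelial markers looked at (KRT8, KRT18, KRT19, EPCAM and CDH1) were counted in every library, with a summed level of 1124 to 1266 CPM in siRPS19 and 1760 to 2233 CPM in siOTP. They went both ways, with KRT8, KRT18 and EPCAM called lower, and KRT19 (6.85-fold) and CDH1 (1.63-fold) called higher. The 3 markers of other cell types summed to 0.477 to 0.621 CPM in siRPS19 and 2.13 to 2.94 CPM in siOTP. Most of it in each library was COL3A1, a fibroblast collagen gene. Its counts were 8 to 11 in siRPS19 and 38 to 56 in siOTP. The leukocyte gene PTPRC had at most 2 counts in any library and the fibroblast gene DCN at most 4. Entries outside annotated genes made up 5.13% to 6.36% in siRPS19 and 3.39% to 3.85% in siOTP; the part of these differences in the results below was not tested. In bulk RNA, fewer cells that express a gene and less RNA per cell cannot be told apart.

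The bases just before the start of the members' RefSeq transcripts (GRCh38.p14) are shown because most members moved in the same direction. A window was matched for 6 of the 9 members; PSPH, SHMT2 and ALDH1L2 were not matched. Each stretch holds the 100 bases before the most upstream start, 5′ to 3′ on the gene's strand, with capitals for matches on either strand to CCAAT (the CCAAT box), CACGTG (the E-box, bound by MYC with MAX), TGATGNAA (core of the element bound by ATF4), TGACNNNGC (core of the element bound by NRF2) and GGGCGG (the GC box).
PHGDH, chr1:119711834-119711933, plus strand: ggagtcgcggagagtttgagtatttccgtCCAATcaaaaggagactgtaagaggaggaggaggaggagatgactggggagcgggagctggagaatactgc
MTHFD2, chr2:74198515-74198614, plus strand: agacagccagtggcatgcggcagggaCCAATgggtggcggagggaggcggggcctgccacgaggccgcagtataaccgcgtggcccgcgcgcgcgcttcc
SHMT1, chr17:18363551-18363650, minus strand: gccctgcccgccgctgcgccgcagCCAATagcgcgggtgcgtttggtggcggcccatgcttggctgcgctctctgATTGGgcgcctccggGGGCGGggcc
MTHFD1, chr14:64388253-64388352, plus strand: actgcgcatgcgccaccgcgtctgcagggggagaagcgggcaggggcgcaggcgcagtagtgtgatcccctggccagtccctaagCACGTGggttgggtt
MTHFD1L, chr6:150866233-150866332, plus strand: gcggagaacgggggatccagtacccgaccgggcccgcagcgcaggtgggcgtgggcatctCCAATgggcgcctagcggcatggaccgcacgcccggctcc
PSAT1, chr9:78297025-78297124, plus strand: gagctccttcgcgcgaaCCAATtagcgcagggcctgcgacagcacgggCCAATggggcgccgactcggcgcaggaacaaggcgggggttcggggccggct

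CCAAT was found in 5 of these 6 stretches, against 18.1% of all 35116 windows of the same 100 bases, and CACGTG in 1 (MTHFD1), against 3.43%. CCAAT and GGGCGG were chosen after the values were seen, and GGGCGG, in 31.3% of all windows, was found in the SHMT1 stretch. TGATGNAA and TGACNNNGC were found in none of the 6, against 1.34% and 5.16% of all windows. The full 300-base windows ran from 250 bases before to 50 after a start, and a gene can have more than 1. In these, TGATGNAA was found in MTHFD1L (3.62% of all windows and 4.46% of 27305 genes). TGACNNNGC was found in MTHFD2 (13.3% of windows and 16.1% of genes), and CACGTG in MTHFD1 and MTHFD1L (7.26% and 8.77%). The MTHFD1L match to the ATF4 element core lies 90 bases before 1 of its other annotated starts, on the plus strand of chr6:150866346-150866375.
MTHFD1L, ATF4 element core in capitals: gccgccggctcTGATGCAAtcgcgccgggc
The GC content of the 6 stretches was 54% for PHGDH and 68% to 76% for the other members, with a median of 60% over all windows. These matches describe letters in a window and no binding was measured.

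Expression of the serine and one-carbon enzymes was lower after RPS19 siRNA, in unequal measure. Of the 9 genes, 7 fell, 1 rose (PSPH) and 1 (ALDH1L2) did not pass edgeR's quasi-likelihood test at an adjusted p of 0.05. The background of calls was wide, with 38.9% of all tested genes called lower and 39.5% called higher. A fall of at least 2-fold was called for 5 of the 9 and for 12.4% of all tested genes. The median log2 fold change was -1.30 over the 9 genes and 0.02 over all tested genes. In 8 of the 9 genes the groups did not overlap, 7 with siRPS19 lower, where 39.6% of all tested genes were so placed, and 1 with siRPS19 higher (40.1%). Fold changes are on a scale set by TMM factors; with library totals instead, the median log2 shift of all genes was 0.29 upward and 65.8% of all calls were higher, against 50.4%. The 7 falls and the rise of PSPH were also called on that scale.

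**Figure D1:**
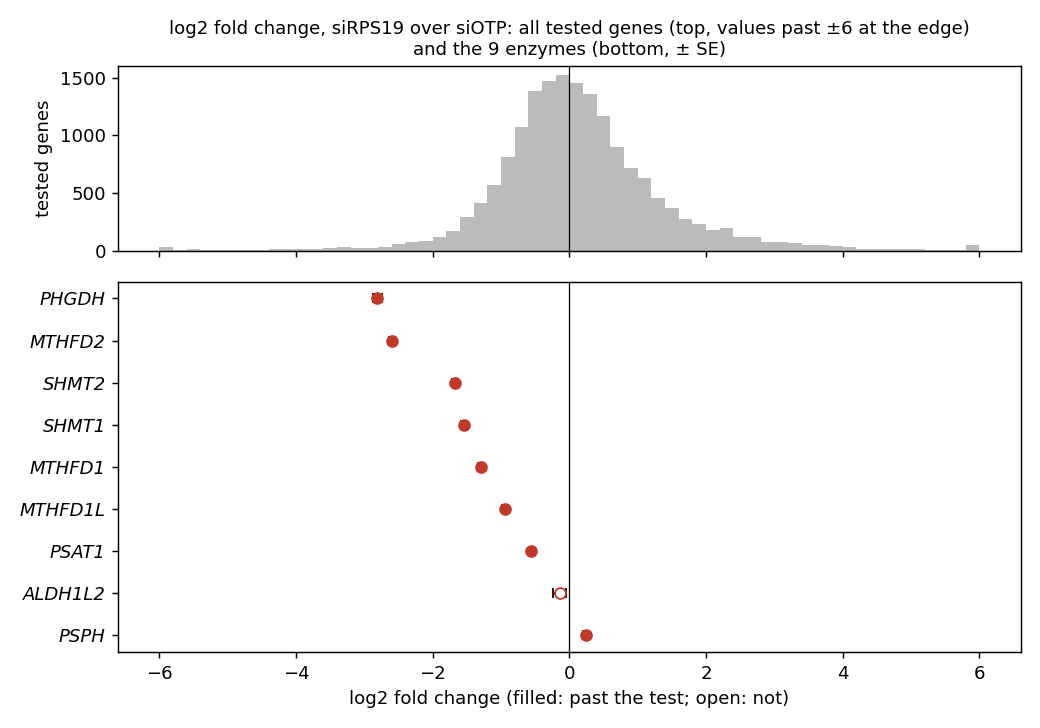
Log2 fold change (x axis) of siRPS19 over siOTP; the top panel counts all 17171 tested genes in bins and the bottom panel gives the 9 enzymes with their SE, filled where the test was passed. PHGDH at -2.81 and MTHFD2 at -2.60 lie at the far left, and PSPH at 0.24 lies right of 0.

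PHGDH (ENSG00000092621, chromosome 1, 120202421 to 120286838, hg19), the dehydrogenase of the first step of serine synthesis, had the lowest log2 fold change of the 9. Its level was 9.12, 7.68 and 7.53 CPM in the 3 siRPS19 libraries and 55.5, 58.0 and 57.5 CPM in the 3 siOTP libraries. Every siRPS19 library was far below every siOTP library, and siRPS19 replicate 1 was the highest of its group. The fall was 7.01-fold (log2 fold change -2.81 ± 0.07 SE, adjusted p = 1.35e-18), and 1.69% of tested genes had a lower one. The gene was read at 237, 177 and 182 counts in siRPS19 and 1157, 1146 and 1116 counts in siOTP, and overlaps no other annotated gene.

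PSAT1 (ENSG00000135069, chromosome 9, 80912059 to 80945009, hg19), the aminotransferase of the next step, changed far less. It stood at 174, 182 and 178 CPM in siRPS19 and at 257, 259 and 270 CPM in siOTP. The groups did not overlap, and the fall was 1.47-fold (log2 fold change -0.56 ± 0.04 SE, adjusted p = 3.13e-11). Of all tested genes, 25.0% had a lower log2 fold change.

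PSPH (ENSG00000146733, chromosome 7, 56078744 to 56119297, hg19), the phosphatase that completes serine, was the member that rose. It stood at 54.5, 59.1 and 58.2 CPM in siRPS19 and at 46.8, 48.8 and 49.8 CPM in siOTP. The lowest siRPS19 library lay above the highest siOTP library, and the rise was 1.18-fold (log2 fold change 0.24 ± 0.05 SE, adjusted p = 0.000168). At the mRNA level the last step of serine synthesis moved opposite to the first. With library totals the log2 fold change was 0.53 for PSPH and -0.27 for PSAT1, both called.

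**Figure D2:**
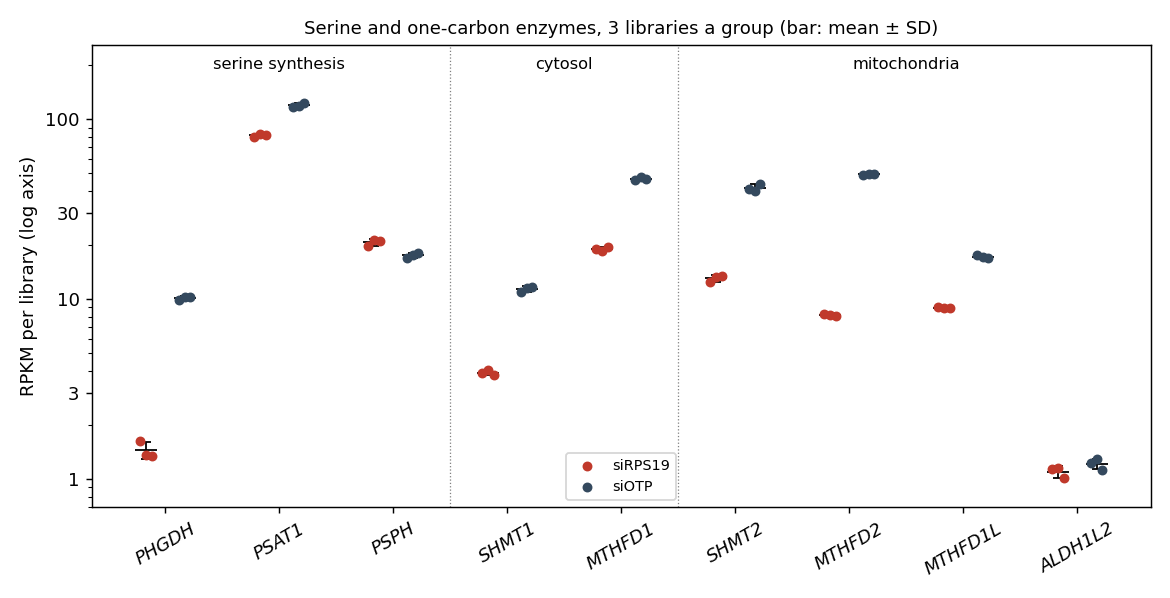
RPKM of the 9 enzymes in each library (log y axis), siRPS19 in red and siOTP in dark blue, with mean and SD of 3 libraries a group. The groups are apart for every gene other than ALDH1L2, widest for PHGDH and MTHFD2, and PSPH is the gene with siRPS19 on top.

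Both serine hydroxymethyltransferases fell by similar amounts. The cytosolic SHMT1 (ENSG00000176974, chromosome 17, 18231187 to 18266856, hg19) stood at 27.3, 28.1 and 26.4 CPM in siRPS19 and at 76.4, 80.3 and 81.6 CPM in siOTP. That was a 2.91-fold fall with no overlap between the groups (log2 fold change -1.54 ± 0.05 SE, adjusted p = 1.03e-16). The mitochondrial SHMT2 (ENSG00000182199, chromosome 12, 57623110 to 57628718, hg19) stood at 60.1, 64.1 and 64.9 CPM in siRPS19 and at 199, 193 and 212 CPM in siOTP. It fell 3.20-fold, again with the groups well apart (log2 fold change -1.68 ± 0.05 SE, adjusted p = 5.41e-18). NDUFA4L2 overlaps SHMT2 on the other strand, with 11, 14 and 9 counts in siRPS19 and 26, 29 and 28 in siOTP.

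MTHFD2 (ENSG00000065911, chromosome 2, 74425689 to 74444692, hg19), the mitochondrial dehydrogenase and cyclohydrolase, fell further than any other member of the folate branch. It stood at 40.5, 39.8 and 39.0 CPM in siRPS19 and at 239, 242 and 243 CPM in siOTP, so that the libraries of each group lay close together and the groups far apart. The coefficient of variation was 1.91% in siRPS19 and 0.805% in siOTP. The fall was 6.06-fold (log2 fold change -2.60 ± 0.04 SE, adjusted p = 6.77e-22), and 1.94% of tested genes had a lower log2 fold change. MTHFD2 overlaps 2 annotated genes on the other strand. Of these, SLC4A5 had 29, 21 and 25 counts in siRPS19 and 10, 13 and 6 in siOTP.

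MTHFD1 (ENSG00000100714, chromosome 14, 64854749 to 64926722, hg19), the cytosolic enzyme with 3 activities, stood at 113, 111 and 115 CPM in siRPS19 and at 272, 284 and 277 CPM in siOTP. It fell 2.46-fold (log2 fold change -1.30 ± 0.04 SE, adjusted p = 2.39e-17). The fall was larger than the spread of the libraries, which did not overlap. MTHFD1 overlaps 2 annotated genes on the other strand. Of these, ZBTB25 had 214, 171 and 207 counts in siRPS19 and 141, 130 and 145 in siOTP.

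MTHFD1L (ENSG00000120254, chromosome 6, 151186685 to 151423023, hg19), the mitochondrial formate-releasing synthetase, stood at 44.5, 44.1 and 44.3 CPM in siRPS19 and at 87.0, 84.5 and 83.9 CPM in siOTP. It fell 1.92-fold (log2 fold change -0.94 ± 0.04 SE, adjusted p = 4.40e-14), and the groups did not overlap. An annotated gene inside it on the same strand, RP1-292B18.1, held 218, 198 and 225 counts in siRPS19 and 353, 351 and 323 in siOTP, and how the counting divided reads between the pair is not known.

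ALDH1L2 (ENSG00000136010, chromosome 12, 105413568 to 105478355, hg19), the mitochondrial formyl-tetrahydrofolate dehydrogenase, was the member with no call. It stood at 9.66, 9.84 and 8.57 CPM in siRPS19 and at 10.5, 10.9 and 9.54 CPM in siOTP, and the groups overlapped. Its log2 fold change was -0.14 ± 0.10 SE (adjusted p = 0.182), and the sign turned with library totals (0.14) and with upper-quartile factors (0.029). C12orf45 overlaps it on the other strand, with 533, 548 and 603 counts in siRPS19 against 370, 358 and 329 in siOTP, and reads of such a pair cannot be told apart without strand.

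Order of response and order of level differed. Ranked by log2 fold change from the lowest, the members ran PHGDH, MTHFD2, SHMT2, SHMT1, MTHFD1, MTHFD1L, PSAT1, ALDH1L2 and PSPH. Neighbours were apart by more than 2 combined SE, with the exception of SHMT2 and SHMT1. Levels between genes were set side by side as RPKM, CPM divided by the authors' transcript length in kilobases. These lengths ran from 2188 bases for PSAT1 to 8501 for ALDH1L2, and how they were derived is not known here. Ranks, sums and ratios of level between genes depend on them, whereas the fold change of a gene does not. PSAT1 had the highest level of the 9 in both groups, with 81.4 ± 1.65 RPKM in siRPS19 and 119.7 ± 3.27 RPKM in siOTP (SD, n = 3 each). MTHFD2 was the sixth in siRPS19 with 8.17 ± 0.156 RPKM and the second in siOTP with 49.5 ± 0.399 RPKM. PSPH was the second in siRPS19 with 20.7 ± 0.881 RPKM and the fifth in siOTP with 17.5 ± 0.555 RPKM, where its libraries overlapped those of MTHFD1L at 17.2 ± 0.328 RPKM. No other neighbours in either order overlapped. In siRPS19 PHGDH, with 1.44 ± 0.156 RPKM, lay just above ALDH1L2, with 1.10 ± 0.0812 RPKM, whereas in siOTP they had 10.1 ± 0.241 and 1.21 ± 0.0843 RPKM.

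Summed over the 9 genes, the level was 158 ± 2.58 RPKM in siRPS19 and 315 ± 6.02 RPKM in siOTP (SD, n = 3 each). PSAT1 alone made up 51.6% ± 0.272 of that sum in siRPS19 and 38.0% ± 0.332 in siOTP. The mitochondrial enzymes summed to 31.3 ± 0.331 RPKM in siRPS19 and 109.7 ± 1.97 RPKM in siOTP, and the cytosolic pair to 22.9 ± 0.276 and 58.2 ± 1.29 RPKM. The sum of the mitochondrial enzymes over that of the cytosolic pair was 1.36 ± 0.0244 in siRPS19 and 1.88 ± 0.0582 in siOTP, a within-library ratio in which the scaling cancels. These sums, and the share of PSAT1, weigh each gene by its RPKM and so depend on the authors' lengths. MTHFD2 and SHMT2 carry most of the mitochondrial value.

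Ratios of enzyme pairs within a library do not depend on how libraries are scaled, and 6 were set out. The ratio of MTHFD2 to MTHFD1, per base of transcript, was 0.437, 0.439 and 0.413 in siRPS19 and 1.07, 1.04 and 1.07 in siOTP. By the authors' lengths the mitochondrial enzyme was thus about level with the cytosolic one in siOTP and below it in every siRPS19 library. The log2 difference between the groups, in which length cancels, was -1.30. The ratio of SHMT2 to SHMT1 was 3.18, 3.30 and 3.55 in siRPS19 and 3.77, 3.47 and 3.75 in siOTP. The groups overlapped, though siRPS19 was below siOTP in each pair of same-numbered libraries. The log2 difference was -0.13 and ran from -0.18 to -0.10 when 1 library was left out. The ratio of MTHFD1L to MTHFD1 was 0.472, 0.478 and 0.461 in siRPS19 and 0.383, 0.356 and 0.364 in siOTP, a log2 difference of 0.36. Against MTHFD1, MTHFD2 was thus lower in every siRPS19 library and MTHFD1L higher. In serine synthesis the ratio of PSAT1 to PHGDH was 49.2, 60.8 and 60.8 in siRPS19 and 11.9, 11.5 and 12.1 in siOTP, a log2 difference of 2.26. That of PSPH to PHGDH was 12.2, 15.7 and 15.7 in siRPS19 and 1.72, 1.71 and 1.76 in siOTP, a log2 difference of 3.06. For the 5 ratios whose groups did not overlap the exact two-sided permutation p was 0.1, the smallest that 3 libraries against 3 allow (0.12 after Benjamini-Hochberg adjustment over 6 ratios), and for SHMT2 to SHMT1 the exact permutation p was 0.2 (adjusted 0.2).

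**Figure D3:**
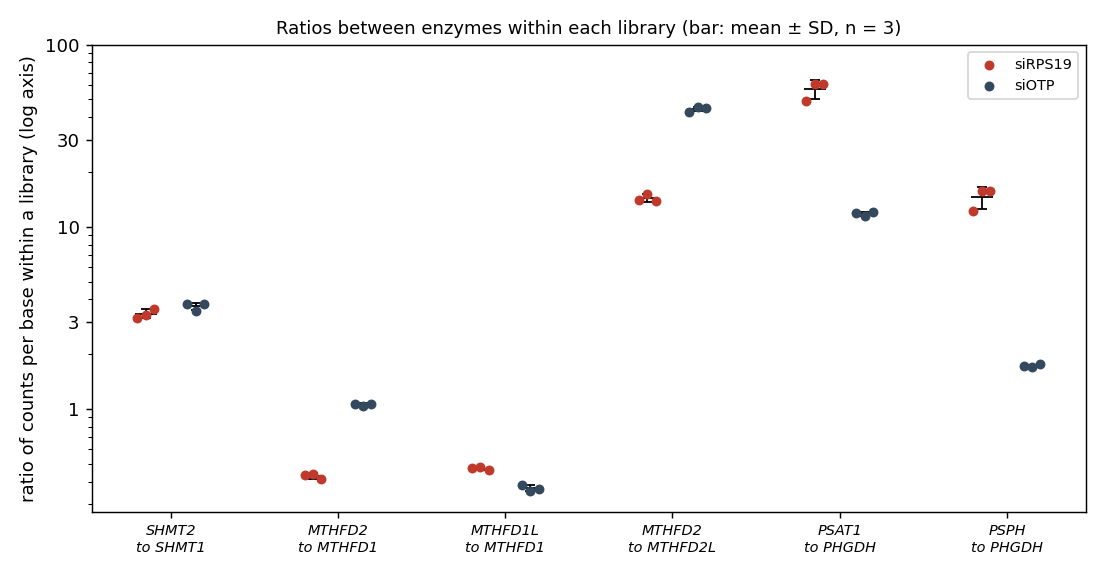
Ratio of counts per base of transcript between 2 enzymes within each library (log y axis), siRPS19 in red and siOTP in dark blue, with mean and SD of 3 libraries. MTHFD2 to MTHFD1 lies near 0.43 in siRPS19 and near 1.06 in siOTP, and SHMT2 to SHMT1 overlaps between the groups.

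Closely related genes outside the 9 were at low levels. MTHFD2L, the paralog of MTHFD2, had 5.81, 5.29 and 5.67 CPM in siRPS19 and 11.2, 10.7 and 10.9 CPM in siOTP, a fall of 1.96-fold (adjusted p = 1.88e-08). Another annotated gene overlaps it on the other strand. The level of MTHFD2 per base was 14.1, 15.2 and 13.9 times that of MTHFD2L in siRPS19 and 43.0, 45.4 and 44.8 times in siOTP, a log2 difference of -1.63. ALDH1L1, the cytosolic counterpart of ALDH1L2, had 92, 73 and 78 counts in siRPS19 and 10 in each siOTP library, which makes 3.31 ± 0.200 CPM in siRPS19 and 0.501 ± 0.0187 CPM in siOTP (log2 fold change 2.72 ± 0.22 SE, adjusted p = 5.64e-10). ALDH1L1 passed the filter on low counts only through siRPS19. An antisense gene, ALDH1L1-AS1, overlaps it. Annotated pseudogenes of the members took few reads, at most 0.664% of the parent gene's count in any library.

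The rest of the pathway, in 6 lists with the paralogs included, was counted in the same way. Of 52 genes, 44 were tested, and 27 of these fell, 9 rose and 8 did not pass. Among the 9 that rose, ALDH1L1, GNMT and SARDH passed the filter on low counts only through siRPS19, where they are higher. Over all tested genes 38.9% were called lower and 39.5% higher. The median log2 fold change was -0.45 in the lists and 0.02 over all tested genes. With library totals 22 fell and 16 rose, and with upper-quartile factors 26 fell and 14 rose. Over all 17171 tested genes, library totals gave 4734 lower and 9114 higher calls, and upper-quartile factors 5505 and 8187.

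Among genes for folate supply and its reduced cofactor, 5 of 9 tested fell, 1 rose and 3 did not pass. The shares over all tested genes were 38.9% lower and 39.5% higher. GGH, the lysosomal hydrolase of folate polyglutamates, fell 4.25-fold, with 20.0 ± 1.71 CPM in siRPS19 and 84.7 ± 1.87 CPM in siOTP (SD, n = 3 each). The folate carrier SLC19A1 fell 2.50-fold, and both genes overlap another annotated gene.

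Among users of one-carbon units, 5 of 6 tested fell and none rose, beside 38.9% lower and 39.5% higher over all tested genes. GART, a purine synthesis enzyme that uses formyl-folate, fell 2.23-fold, with 89.7 ± 0.444 CPM in siRPS19 and 200 ± 2.69 CPM in siOTP (SD, n = 3 each). ATIC, the later formyl-folate step of purine synthesis, fell 1.37-fold, and MTRR, the reductase that keeps methionine synthase active, 1.47-fold. GART and MTRR overlap other annotated genes.

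In the methionine cycle and transsulfuration 5 of 8 tested genes fell and 2 rose, beside 38.9% lower and 39.5% higher over all tested genes. CBS, which joins serine to homocysteine, fell 3.00-fold, with 9.13 ± 0.262 CPM in siRPS19 and 27.5 ± 1.82 CPM in siOTP (SD, n = 3 each). CTH, the next enzyme of transsulfuration, fell 1.62-fold, and AHCYL1, an adenosylhomocysteinase-like gene counted in this list, 1.87-fold. GNMT, one of the 2 called higher, had 27, 25 and 27 counts in siRPS19 and 7, 1 and 6 counts in siOTP, so it passed the filter on low counts only through siRPS19; it overlaps PEX6. MAT2B, a regulatory subunit of methionine adenosyltransferase, rose 1.28-fold. With library totals 3 genes of this list fell in place of 5.

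Of the glycine cleavage system and serine-using enzymes, 4 of 10 tested genes were called lower and 4 higher, shares close to those over all tested genes (38.9% and 39.5%). GLDC and GCSH, 2 proteins of the glycine cleavage system, fell 2.00-fold and 1.54-fold, whereas AMT, its aminomethyltransferase, rose 6.98-fold, with 9.43 ± 1.57 CPM in siRPS19 and 1.35 ± 0.210 CPM in siOTP (SD, n = 3 each). SDSL, a serine dehydratase-like gene that overlaps SDS, rose 2.38-fold. SARDH, the sarcosine dehydrogenase, also among the 4 called higher, had 20, 20 and 15 counts in siRPS19 and 2, 5 and 1 counts in siOTP, so it passed the filter only through siRPS19. Its log2 fold change of 2.45 ± 0.45 SE was 3.22 without siOTP replicate 2. SPTLC2, a subunit of the serine palmitoyltransferase that starts sphingolipid synthesis, fell 1.41-fold. GLDC, GCSH and SPTLC2 overlap other annotated genes.

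Of 9 tested transporters of serine and glycine, 7 fell and 1 rose, beside 38.9% lower and 39.5% higher over all tested genes. SLC1A5, an exchanger of neutral amino acids, fell 3.68-fold, with 97.4 ± 1.74 CPM in siRPS19 and 359 ± 24.5 CPM in siOTP (SD, n = 3 each). The glycine transporter SLC6A9 fell 4.25-fold and the serine carrier SLC1A4 2.13-fold, and SFXN3, a sideroflexin of the mitochondrial membrane, rose 1.17-fold. SLC1A5, SLC6A9 and SLC1A4 overlap other annotated genes.

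Of 8 known regulators 5 fell and 1 rose at the mRNA level, with 4 each way under library totals. The shares over all tested genes were 38.9% lower and 39.5% higher, with 4734 lower and 9114 higher calls under library totals. ATF4 stood at 102, 108 and 111 CPM in siRPS19 and at 323, 320 and 338 CPM in siOTP, a fall of 3.06-fold (adjusted p = 3.03e-18). MYC stood at 98.9, 91.7 and 99.1 CPM in siRPS19 and at 213, 201 and 204 CPM in siOTP, a fall of 2.13-fold. For both genes the groups did not overlap. NFE2L2, which encodes NRF2, was called lower (log2 fold change -0.16 ± 0.04 SE), but with library totals it was 0.13 and called higher. Of the genes for kinases that phosphorylate eIF2 and raise ATF4 translation, EIF2AK1 fell 1.68-fold and EIF2AK3 1.40-fold, EIF2AK4 rose 1.41-fold, and EIF2AK2, at a log2 fold change of -0.04, did not pass and was called higher with library totals (0.25) and with upper-quartile factors (0.13). ATF4 is regulated mainly in translation, and its protein was not measured. MYC and ATF4 overlap no other annotated gene; the kinase genes and NFE2L2 do.

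Of 32 tested ATF4 targets outside the pathway, 21 fell and 6 rose, 13 of the falls by at least 2-fold, with a median log2 fold change of -0.61. Over all tested genes 38.9% were called lower, 39.5% higher and 12.4% lower by at least 2-fold. The amino acid transporter genes SLC7A1, SLC7A5 and SLC3A2 fell 10.5-fold, 4.92-fold and 3.96-fold, the 3 largest falls of that list. SESN2 and DDIT4, which restrain mTORC1, rose 12.5-fold and 2.43-fold, and the stress gene NUPR1 rose 1.69-fold. With library totals 19 fell and 10 rose, beside the 4734 lower and 9114 higher calls over all tested genes on that scale. DDIT4 and SLC7A5 overlap other annotated genes. Whether the enzymes and these genes share a cause was not tested.

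**Figure D4:**
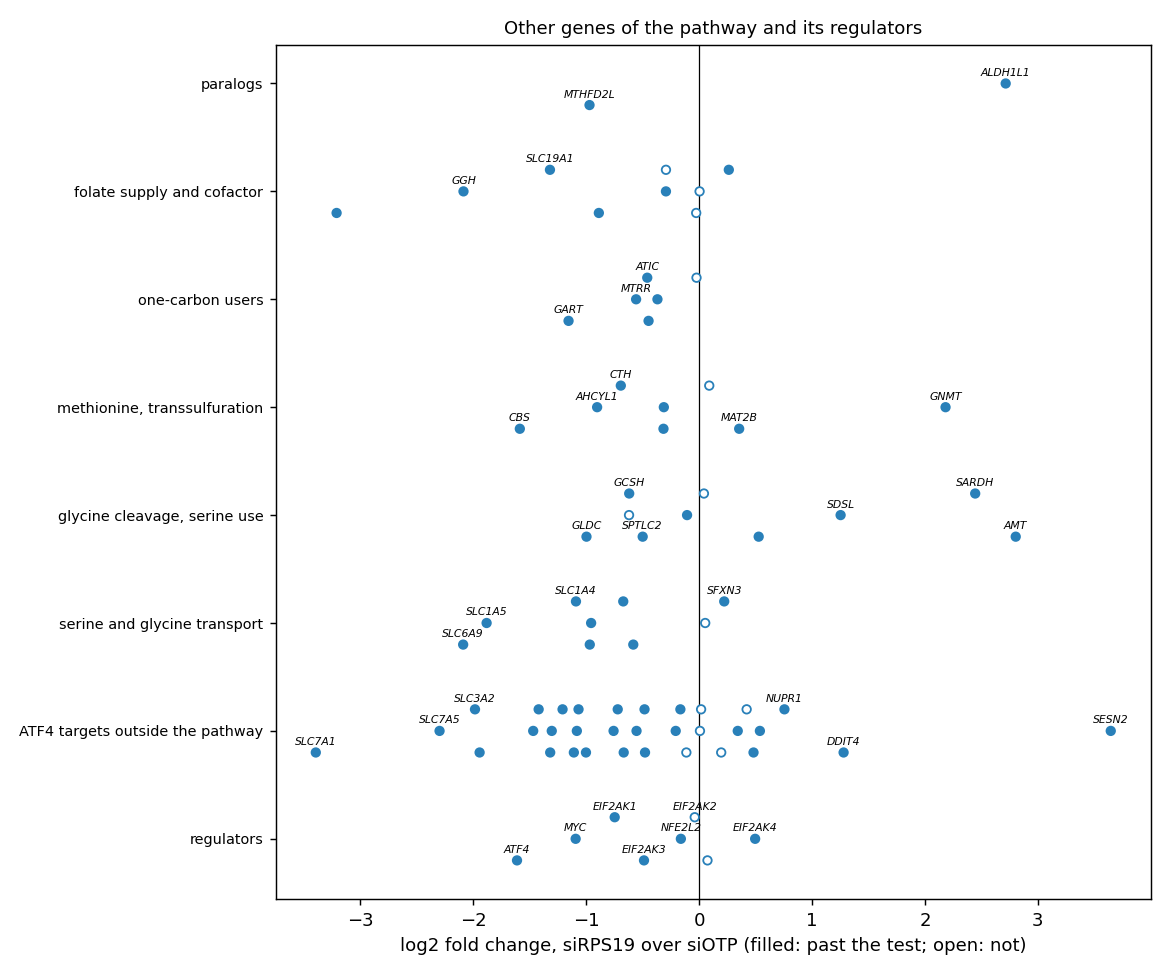
Log2 fold change (x axis) of siRPS19 over siOTP for tested genes of each list (rows), filled where the test was passed, with names for some genes and vertical offsets only to separate points. GGH, SLC7A1 and ATF4 lie on the left, and ALDH1L1, AMT, GNMT, SARDH and SESN2 on the right.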

How the data were processed

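TopHat2 (2.0.8b), HTSeq, DESeq, R (3.0.2) and the build hg19 are named in the submitters' processing notes. The sources used here do not give how overlapping genes were counted, whether strand was used, or the version of the gene annotation. For each of 6 libraries the authors deposited whole-number read counts per gene, which were used in every test. The authors' deposited table has 1 RPKM value per group: tested on the file, it is the mean count plus 1 over transcript length and total, for 100% of 62729 genes within 0.0051 RPKM. It supplied symbols, hg19 coordinates and lengths. Entries that name no gene (no feature, 3.39% to 6.36%; ambiguous, 7.50% to 8.24%) were left out. Merged count tables, whose columns name no library, were not used.

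Genes were kept with filterByExpr (minimum count 10, minimum total 15), scaled with TMM factors and tested over all 17171 genes with edgeR 4.0.16 (robust glmQLFit, glmQLFTest; R 4.3.3), with Benjamini-Hochberg adjustment and a threshold of 0.05. Each SE is the log2 fold change over the square root of F. CPM and per-library RPKM are TMM-scaled. The script was tested on simulated counts in which few genes changed, as many up as down. That test cannot check the scaling or the error rate where most genes are called, as here.

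The members and all lists were chosen with earlier results of these data known. Named are the 9 members, paralogs and regulators, and in other lists up to 3 rises and 3 falls with the largest change among called genes without overlap between groups; some of these genes are not reported here by name. Replicates differed by more than sampling noise (chi-square per degree of freedom 4.40 to 16.6). Same-numbered libraries of the 2 groups carry the same date in their sample descriptions, which do not say what was done on it. The main fit and the exact permutation tests did not use this pairing. The replicate block and the sign-flip test did. Deviations of same-numbered libraries correlated at 0.055, -0.095 and 0.045 across genes. Alternatives were other scalings, filters, DESeq2 1.42.0, limma-voom (limma 3.58.1), a replicate block and leaving out each library.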

Additional observations from a re-analysis of the deposited data

Results flagged for a closer look

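Entries outside annotated genes, which no test of genes above uses, made up 5.81% ± 0.622 of each siRPS19 library and 3.64% ± 0.232 of each siOTP library (SD, n = 3 a group). The groups did not overlap, and an exact permutation test (two-sided) gave p = 0.1, its lower limit with 3 against 3.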

How the results depend on the processing

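Of the 9 enzymes, 7 were called lower and 1 higher in each of 14 alternatives, with the replicate block (7 and 1), DESeq2, limma-voom and each library left out included. The log2 fold change ran from -2.89 to -2.52 for PHGDH, -2.65 to -2.31 for MTHFD2, -0.61 to -0.27 for PSAT1 and 0.19 to 0.53 for PSPH, the end nearest to 0 (for PSPH the farthest) with library totals. ALDH1L2 turned to 0.14 with library totals and 0.029 with upper-quartile factors, and was called in no alternative (adjusted p 0.0793 to 0.792). EIF2AK2 turned to 0.25 with library totals, 0.13 with upper-quartile factors and 0.010 when genes under a mean CPM of 1 were dropped, and NFE2L2 to 0.13 and 0.012 with library totals and upper-quartile factors.

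With library totals, genes called higher numbered 3 for folate supply, 1 for one-carbon users, 2 for transport, 4 for regulators, 10 for ATF4 targets and 16 for the 6 lists, and 3 methionine genes were called lower. With upper-quartile factors the higher calls were 2, 1, 2 and 3 for folate supply, one-carbon users, transport and regulators, and 14 for the 6 lists. DESeq2 called 0 folate supply genes higher. Dropping genes under a mean CPM of 1 raised the regulators called higher from 1 to 2. The cause of the other moves was not tested; scaling shifts all genes alike. With the replicate block 27 genes of the 6 lists fell and 9 rose, and it changed none of the calls on the 9 enzymes. Ratios within libraries kept their sign with 0.5 added to counts, and their exact sign-flip p over pairs was 0.25, the smallest possible. For genes of low count, such as ALDH1L1 and SARDH, depth limits the precision.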
